A study of Mus musculus with 4 samples.

Results

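The AP-1 and immediate-early genes described here are Fos, Fosb, Jun, Junb, Jund, Egr1, Ier2, Atf3, Dusp1 and Zfp36, chosen by name. They were read from every probe set whose platform symbol is exactly one of these names, which gave 12 probe sets for 10 genes, out of 45037 probe sets and 18193 genes with a probe set of a single symbol. The study measured mRNA on expression arrays in lymphoid-primed multipotent progenitors (LMPPs), early bone marrow progenitors that still give lymphoid and myeloid cells. The cells were flow-sorted as lineage-negative, c-Kit+ and Sca-1+ with high Flt3 from C57Bl/6 mice aged 6 to 8 weeks, and their RNA was amplified before labelling. There were 2 wild-type arrays, WT 1 and WT 2, and 2 arrays labelled KO 1 and KO 2, from mice given as Lyl1-null, with a knock-out allele of Lyl1, a basic helix-loop-helix factor of blood progenitors. Which part of Lyl1 that allele lacks was not stated in the labels. They name no treatment, no pooling and no separate mice for the arrays of a group, and the spread behind each p-value is that of these 4 samples, which may be technical.

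Immediate-early genes are switched on within minutes of a stimulus, from factors already present in the cell, and their mRNAs decay quickly. Proteins of the Fos and Jun families pair through leucine zippers into the AP-1 transcription factor. Egr1 is a zinc finger factor, Dusp1 a phosphatase that switches MAP kinases off, and Zfp36 an RNA-binding protein that speeds the decay of short-lived mRNAs. In blood cells these genes answer to cytokines and stress, and they are also known to respond to the handling of cells during tissue dissociation and sorting.

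The libraries were checked against their labels first. The one labelled KO 2 still read 10.32 for Lyl1 (log2 RMA expression, a background-corrected and normalized array value), 25.1% of the WT mean, where KO 1 read 5.14. It also read 14.26 for Xist, the RNA of the silent X chromosome, against 5.81 to 6.30 in the other 3, and 8.44 for the Y-linked Eif2s3y against 10.07 to 10.15. Xist and Eif2s3y read the sex of the cells, so KO 2 was unlike the other 3 libraries in sex markers as well. Eif2s3y was still at 30.9% of the WT mean there. The label of KO 2 is therefore in doubt. The differences of the members, and the counts of the gene lists beside them, are given with and without that library. The part of sex, or of a mixture of cells, in the values of KO 2 was not tested. All 8 LMPP marks that were read here lay above the expression filter in every library. Of these, Flt3 and Kit belong to the sort gate, while others, such as Cd34 and Dntt, do not. Sca-1, also of the gate, was not read. The 8 marks were not level between libraries. The difference (Lyl1-null minus WT, median −0.30) was negative in 7 of the 8, as in 56.9% of all genes tested. KO 2 was the lowest library in 7, as in 44.2% of all genes tested. Kit, the stem cell factor receptor gene, read 10.07 and 10.27 in WT, 9.56 in KO 1 and 8.97 in KO 2 (−0.90, limma adjusted p = 0.644), and Cd34 read 12.76, 12.87, 12.59 and 11.92 in the same order. Il7r, the 1 mark with a positive difference, read 9.37 and 9.62 in WT, 10.25 in KO 1 and 10.03 in KO 2. Its difference was 0.65 (limma adjusted p = 0.644), and 0.76 in KO 1 alone. In KO 1 alone 4 of the 8 were negative, with a median of −0.04. The part of this in the members' levels was not tested.

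Upstream sequences are shown for 4 members, picked by their levels. They stood out most in WT 1 among the members with a RefSeq promoter entry. Being highest in WT 1 does not set them apart, since 8 of the 9 tested members were. For Fosb that place was fixed by the expression filter. A tie between motifs and levels in WT 1 was not tested. RefSeq entries (GRCm38.p6) were matched for 8 of the 10 members, not for Egr1 and Ier2. Each line gives the 200 bases before the annotated start, 5′ to 3′ on the gene's strand. Capitals mark TGACG on either strand, the core of the cAMP response element bound by CREB and ATF factors, and a CArG box, the motif of serum response factor.
Fos, chr12:85473690-85473889, plus strand: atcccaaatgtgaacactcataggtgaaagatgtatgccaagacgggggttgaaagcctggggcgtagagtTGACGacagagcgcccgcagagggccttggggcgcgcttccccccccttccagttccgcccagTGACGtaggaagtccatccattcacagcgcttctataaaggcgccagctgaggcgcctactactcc
Fosb, chr7:19310046-19310245, minus strand: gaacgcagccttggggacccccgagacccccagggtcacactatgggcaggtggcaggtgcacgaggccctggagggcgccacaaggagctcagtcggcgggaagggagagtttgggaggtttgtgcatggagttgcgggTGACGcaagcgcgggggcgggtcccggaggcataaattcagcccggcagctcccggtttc
Dusp1, chr17:26508473-26508672, minus strand: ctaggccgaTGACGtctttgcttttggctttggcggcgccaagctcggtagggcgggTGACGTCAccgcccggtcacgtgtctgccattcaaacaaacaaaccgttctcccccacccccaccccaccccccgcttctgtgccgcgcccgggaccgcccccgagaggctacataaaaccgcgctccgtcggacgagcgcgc
Zfp36, chr7:28379229-28379428, minus strand: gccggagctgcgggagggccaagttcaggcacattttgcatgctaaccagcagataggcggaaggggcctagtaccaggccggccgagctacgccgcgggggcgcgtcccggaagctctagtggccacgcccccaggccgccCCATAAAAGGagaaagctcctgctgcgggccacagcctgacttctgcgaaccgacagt

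Over the 250 bases before the start, TGACG (searched on both strands) was present in 5 of the 8 members, Fos, Fosb, Junb, Dusp1 and Atf3, and in 17.8% of all 32851 promoters in the table. The full palindrome TGACGTCA, which contains TGACG, was present in Dusp1 among the members and in 1.55% of all promoters. A CArG box, searched on both strands, was present in Zfp36 among the members and in 1.47% of all promoters. The AP-1 letters TGANTCA, searched on both strands, were present in 0 of the 8 members and in 6.75% of all promoters. The Fos window held TGACG at 129 to 125 and at 66 to 62 bases before the start, and the Fosb window at 60 to 56. In Dusp1 the palindrome lay at 143 to 136 bases before the start. The CArG box of Zfp36 lay at 58 to 49. These are matches of letters, not measured sites. Variant forms of these motifs, and bases farther upstream, were not searched, so a missing match does not mean that a gene lacks such a site.

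Levels of 8 of the 9 tested members were highest in WT 1, and 6 of the 9 were lowest in the library labelled KO 2. Over all 11196 genes tested these places were taken in 21.1% and 44.2% of genes. A gene was tested where its brightest probe set averaged at least 5.69 (log2) over the 4 arrays, the median of such averages over the whole array. Atf3 did not reach it. Fosb reached it only through WT 1, so its place among those highest in that array was fixed by the filter. The order WT 1, WT 2, KO 1 and KO 2, from high to low, was followed by 5 members, Fos, Jun, Ier2, Dusp1 and Zfp36, and by 7.39% of all genes.

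**Figure D1:**
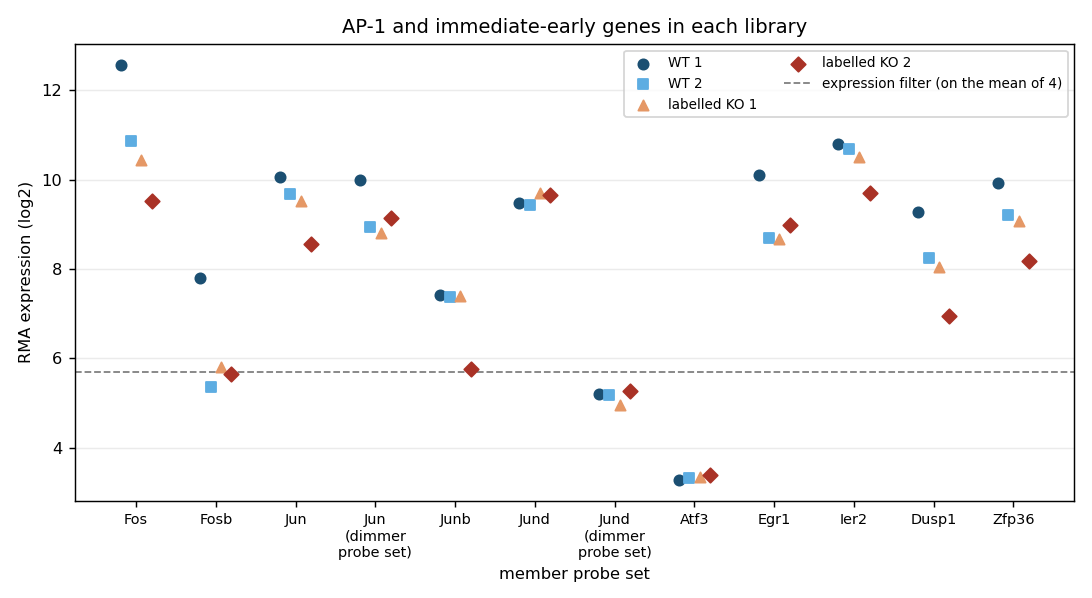
RMA expression (log2) of the 12 member probe sets in each of the 4 libraries, with the expression filter as a dashed line. The WT 1 points of Fos (12.58), Fosb (7.80), Egr1 (10.10) and Dusp1 (9.28) stand at least 1 log2 unit above the other 3 points of their gene.

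Among the Fos family, Fos, the main inducible AP-1 partner of the Jun proteins, was read from probe set 1423100_at at 12.58 and 10.86 in WT 1 and WT 2. It stood at 10.44 and 9.53 in the libraries labelled KO 1 and KO 2. The WT arrays were thus 1.71 log2 units apart, or 3.27-fold, and the arrays labelled KO 0.92 apart. Between the highest and the lowest library the level differed 8.28-fold. Both libraries labelled KO lay below both WT libraries, but the lower WT array was nearer to the higher KO array than to the other WT array. The difference, Lyl1-null minus WT, was −1.74 (SE 0.60, 95% interval −3.24 to −0.23, n = 2 each), with an unadjusted p of 0.0309 and a limma adjusted p of 0.644 over all genes, so Fos did not pass the threshold.

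Fosb, a close relative of Fos with the same dimer partners, was at 7.80 in WT 1 and at 5.36 in WT 2. The libraries labelled KO read 5.80 and 5.64. A single array therefore carried the signal, and the other 3 lay between 5.36 and 5.80, around the filter. Fosb passed the filter on the strength of that array. Its WT arrays were 2.44 log2 units apart, but WT 2 lay below the filter, and no fold is drawn from that gap. The groups overlapped, and the difference was −0.86 (SE 0.75, 95% interval −2.74 to 1.02, adjusted p = 0.694).

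Among the Jun family, Jun was read from 2 probe sets that did not give the same order. The brighter one (1417409_at) read 10.07 and 9.67 in WT and 9.52 and 8.56 in the libraries labelled KO, with no overlap and a difference of −0.83 (SE 0.35, adjusted p = 0.644). The dimmer one (1448694_at) read 9.99 and 8.94 in WT and 8.80 and 9.15 in the libraries labelled KO. In this probe set the groups overlapped, and the difference was −0.49 (SE 0.37, adjusted p = 0.655 in the fit of all probe sets). Both placed WT 1 highest, by 0.39 log2 units over WT 2 in the brighter probe set and by 1.04 in the dimmer one. They parted in the library labelled KO 2, which was 0.96 below KO 1 in the brighter probe set and 0.35 above it in the dimmer one.

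Junb, which can take the place of Jun in AP-1 and often restrains it, stood at 7.43 and 7.38 in WT, at 7.39 in the library labelled KO 1 and at 5.77 in the one labelled KO 2. WT and the library labelled KO 1 were within 0.05 log2 units of each other, and the remaining library was 1.61 below the lowest of them. The groups overlapped, and the difference was −0.82 (SE 0.51, 95% interval −2.10 to 0.45, adjusted p = 0.644). Jund, the least inducible Jun protein, was at 9.49 and 9.44 in WT and at 9.70 and 9.66 in the libraries labelled KO. It was the only tested member with a positive difference, 0.22 (SE 0.16, 95% interval −0.17 to 0.61, adjusted p = 0.656), and its arrays differed by 0.045 within each group. The dimmer Jund probe set (1440265_at) lay below the filter, between 4.96 and 5.26 in all libraries.

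Atf3, a stress-induced bZIP factor that can pair with Jun proteins, was dim in all libraries. Its values lay between 3.28 and 3.38, well below the filter, and it entered no test. The 4 arrays spanned 0.098 log2 units in this probe set.

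Egr1 followed the Fosb pattern in being high in WT 1 only, with 10.10 there and 8.70 in WT 2. The libraries labelled KO read 8.67 and 8.98. The other 3 libraries thus lay within 0.31 log2 units of each other, and the groups overlapped. The difference was −0.57 (SE 0.46, 95% interval −1.72 to 0.57, adjusted p = 0.672). Ier2, a small nuclear protein induced along with Fos, read 10.81 and 10.70 in WT and 10.50 and 9.70 in the libraries labelled KO. There the library that stood apart was the one labelled KO 2, and the difference was −0.65 (SE 0.29, 95% interval −1.38 to 0.07, adjusted p = 0.644).

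The 2 feedback members had the same order of libraries. Dusp1 was at 9.28 and 8.26 in WT and at 8.04 and 6.95 in the libraries labelled KO. Each group's arrays were thus at least 2-fold apart, 1.02 log2 units in WT and 1.08 in those labelled KO. The difference was −1.27 (SE 0.47, 95% interval −2.46 to −0.09, unadjusted p = 0.039, adjusted p = 0.644). Zfp36 was at 9.94 and 9.22 in WT and at 9.08 and 8.18 in the libraries labelled KO, a difference of −0.95 (SE 0.38, unadjusted p = 0.0497, adjusted p = 0.644). In both genes the groups did not overlap, while WT 2 and the library labelled KO 1 differed by 0.22 and 0.14 log2 units.

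The spread between arrays of one group was wide for these genes. The 2 WT arrays were at least 1 log2 unit apart in 4 of the 9 tested members, Fos, Fosb, Egr1 and Dusp1, and in 42 of 11196 genes, or 0.375%. Fosb had passed the filter only through WT 1, and without it the count was 3 of 8. Ranked by the size of that gap among all genes tested, Fos was at place 7, Egr1 at 13, Dusp1 at 39 and Zfp36 at 144, while Ier2, Junb and Jund were at places 6819, 9179 and 9364. The median gap was 0.72 in the members and 0.15 over all genes. WT 1 lay at least 1 log2 unit above all 3 other libraries in 7 genes, 0.0625% of those tested, and 4 of the 7 were members: Fosb, Fos, Egr1 and Dusp1. Without Fosb, a choice made after the values were seen, 3 of 6 were members. The remaining 3, named after their values were seen, were the carbonic anhydrase gene Car1 (1.40 above the next library), the signalling adaptor gene Eps8l1 (1.05) and Klf2 (1.08), a zinc finger factor that is itself an immediate-early gene in many cells.

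The libraries labelled KO were at least 1 log2 unit apart in 2 members, Junb (1.62) and Dusp1 (1.08), and in 4.63% of all genes. The share of members, 2 of 9, rests on few genes, and Jun (0.96), Fos (0.92), Zfp36 (0.89) and Ier2 (0.81) lay under that mark. The median gap was 0.89 in the members and 0.28 over all genes. KO 1 was the higher of these 2 libraries in 8 of 9 members, with Egr1 the exception, and in 6181 of all genes, or 55.2%. The library labelled KO 2 lay at least 1 log2 unit below all 3 other libraries in Junb and Dusp1 and in 2.2% of all genes.

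**Figure D2:**
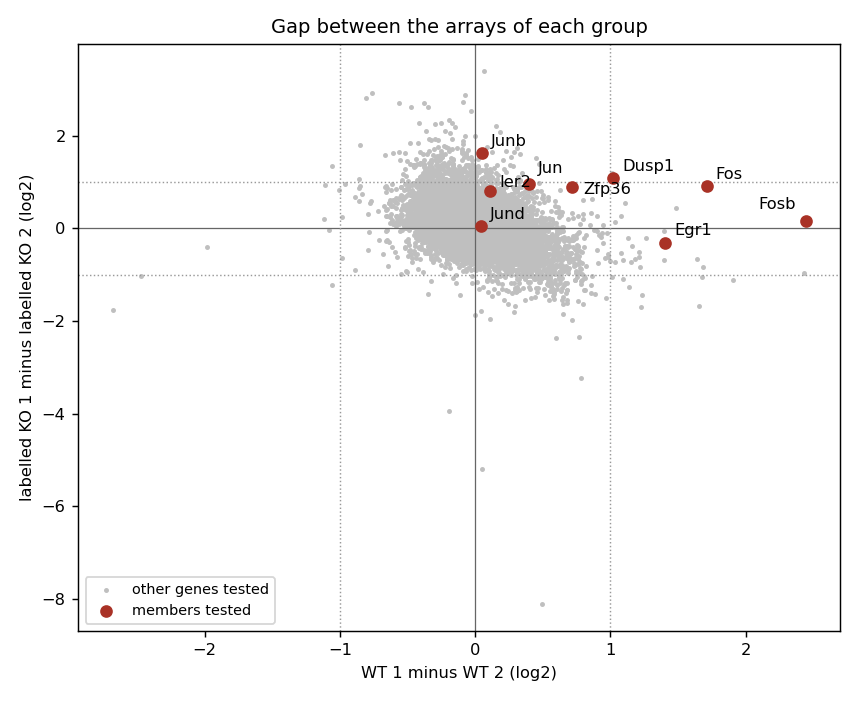
Each point is a gene tested, with WT 1 minus WT 2 on the horizontal axis and the library labelled KO 1 minus the one labelled KO 2 on the vertical axis, both in log2 units; dotted lines mark 1 log2 unit. Fosb (2.44), Fos (1.71), Egr1 (1.40) and Dusp1 (1.02) lie to the right of the dotted line, and Junb (1.62) and Dusp1 (1.08) above it.

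Set side by side, WT 2 and the library labelled KO 1 gave near values. The latter was lower by 0.42 for Fos, by 0.22 for Dusp1, by 0.19 for Ier2, by 0.16 for Jun, by 0.14 for Zfp36 and by 0.02 for Egr1. It was higher by 0.01 for Junb, by 0.26 for Jund and by 0.44 for Fosb. None of the 9 members differed by 1 log2 unit between these 2 arrays, and 0.697% of all genes did. The median size of the difference was 0.19 in the members and 0.16 over all genes. This is a comparison of 2 single arrays, chosen after the values were seen, with no test.

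Between the genotypes, 8 of 9 tested members had a negative difference, as did 56.9% of all genes, with a median of −0.83 in the members and −0.05 over all genes. Fosb is among these 8, but it passed the filter only through WT 1, and without WT 1 its difference was 0.36. No member passed an adjusted p of 0.05 in limma, a threshold that 1 gene of 11196 (0.00893%) passed. At an unadjusted p under 0.05 there were 3 members, Fos, Dusp1 and Zfp36, all lower, beside 4.67% of all genes. The libraries labelled KO lay below both WT libraries in 5 members, Fos, Jun, Ier2, Dusp1 and Zfp36, and in 24% of all genes. They lay above both in 1 member, Jund, and in 18.7% of all genes. With 2 arrays against 2, an exact two-sided permutation test of a single gene cannot go below p = 0.333, the value it gave for these 6 members.

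The call turned on the library labelled KO 1. Without it, the comparison rests on the library with residual Lyl1, and 5 members passed as lower: Junb (−1.63, adjusted p = 0.00606), Ier2 (−1.06, 0.0159), Jun (−1.31, 0.0165), Dusp1 (−1.82, 0.03) and Zfp36 (−1.39, 0.03). In that fit 10.8% of all genes passed as lower. Fos, with the largest difference there (−2.19), had an adjusted p of 0.056. Without the library labelled KO 2, 0 members passed in limma. The differences were then −1.28 for Fos, −0.78 for Fosb, −0.73 for Dusp1, −0.72 for Egr1, −0.50 for Zfp36, −0.35 for Jun, −0.25 for Ier2, −0.01 for Junb and 0.24 for Jund, and 0.107% of all genes passed as lower.

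Leaving out WT 1 changed the sign of Fosb, to 0.36, and of Egr1, to 0.13. Fos then read −0.88, Dusp1 −0.76 and Zfp36 −0.59, and 6 of 9 members had a negative difference. Leaving out WT 2 instead gave −2.59 for Fos, −2.08 for Fosb, −1.78 for Dusp1 and −1.27 for Egr1. In neither fit did a member pass in limma (0.00893% of all genes passed as lower in each). Each such fit leaves 1 array in a group, which is assumed to vary like the other group. For Jun, all fits with a library left out used the brighter probe set. Against the WT mean, the library labelled KO 2 read −1.31 in that probe set but −0.32 in the dimmer one.

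**Figure D3:**
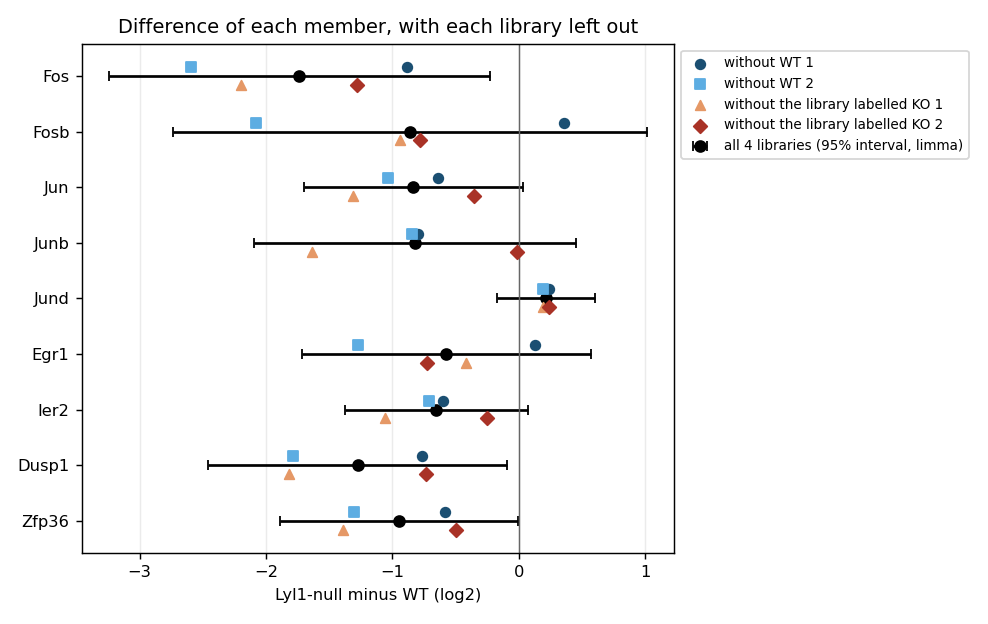
Difference of each tested member, Lyl1-null minus WT (log2), with all 4 libraries (black, with the 95% interval from limma) and with each library left out in turn. Fosb and Egr1 move to 0.36 and 0.13 without WT 1, and Junb to −0.01 without the library labelled KO 2.

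Of 57 other immediate-early genes listed, 48 were tested, 0 passed over all genes in limma and 11 had an unadjusted p under 0.05, 9 of them lower. The difference was negative in 32 (66.7%, beside 56.9% of all genes) and positive in 16, with a median of −0.14. Without the library labelled KO 2, 33 were negative, with a median of −0.10. WT 1 was above WT 2 in 38 of the 48, against 9 of 9 members and 49.3% of all genes. It was the highest library in 24, against 8 of 9 members and 21.1% of all genes. The smallest p-values belonged to the cell cycle inhibitor gene Cdkn1a (1.98, adjusted p = 0.297), the small GTPase gene Rhob (−0.93, adjusted p = 0.581) and the bZIP repressor gene Nfil3 (0.72, adjusted p = 0.644). Rhob read 9.84 and 9.52 in WT and 8.64 and 8.86 in the libraries labelled KO, with groups that did not overlap. Klf2 read 7.35 in WT 1, 6.27 in WT 2 and 6.02 and 5.75 in the libraries labelled KO, so its order of libraries was that of Fos.

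The other AP-1 and bZIP partners did not share this order. Of 15 tested out of 20 listed, 7 had a positive and 8 (53.3%) a negative difference, beside 56.9% negative over all genes. The median was −0.0024, and WT 1 was the highest library in 1. Without the library labelled KO 2, 10 were negative, with a median of −0.06. None passed in limma and 0 had an unadjusted p under 0.05. Maff (0.56), a small Maf protein, Atf2 (−0.31), a partner of Jun, and Batf2 (0.28), an AP-1 relative of immune cells, had the smallest p-values, each at an adjusted p of 0.644. Maff read 0.32 in KO 1 alone against the WT mean.

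Kinases and serum response factors upstream of these genes were tested for 22 of 29 listed. Of these, 9 had a positive and 13 (59.1%) a negative difference, near the 56.9% negative over all genes. The median was −0.15, and 0 passed in limma while 1 had an unadjusted p under 0.05. That was Mapk14, the p38 kinase (−0.50, adjusted p = 0.644), followed by the kinase gene Mapkapk2 (−0.39) and the SRF partner gene Elk4 (−0.33). Without the library labelled KO 2, 16 of the 22 were negative, with a median of −0.06, and Mapkapk2 read −0.21. Among RNA-decay partners and targets of the Zfp36 family, 7 of 9 tested had a negative difference, as did 56.9% of all genes. In limma 0 passed. An unadjusted p under 0.05 was seen in 2, the family member Zfp36l2 (−0.55) and the exonuclease gene Xrn1 (−0.59). The deadenylase gene Cnot8 read −0.41. Adjusted p-values of these 3 were 0.644. Without the library labelled KO 2, 8 of the 9 were negative, with Zfp36l2 at −0.60, Xrn1 at −0.31 and Cnot8 at −0.21.

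Heat shock genes, another group known to answer to handling, had differences of the opposite sign. The part of handling in either group was not tested. All 9 tested of 12 listed had a positive difference, as did 43.1% of all genes. Their median was 0.21 and the smallest was 0.02, for Hspa5, and WT 1 was the highest library in 0. None passed in limma and 1 had an unadjusted p under 0.05, the chaperone gene Hsph1 (0.96, adjusted p = 0.623), followed by Hspe1 (0.39) and Hspb1 (0.42), both chaperone genes. Without the library labelled KO 2, 8 of the 9 were positive, with a median of 0.18. Hsph1 then read 0.70, Hspe1 0.20 and Hspb1 0.18, while the co-chaperone gene Dnajb1 turned from 0.29 to −0.10. The inducible chaperone gene Hspa1b, named after its values were seen, averaged below the filter and was not tested. It read 4.45 and 4.48 in WT, 4.85 in KO 1 and 7.86 in KO 2, so that it stood apart in KO 2 alone.

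**Figure D4:**
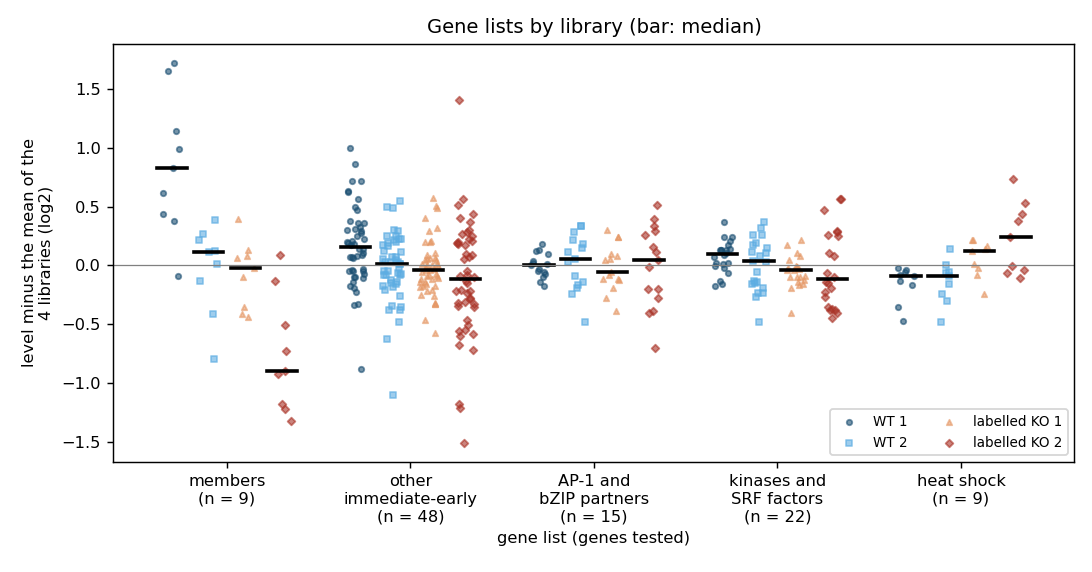
Level of each tested gene minus its own mean over the 4 libraries (log2) for 5 gene lists, with 1 point per gene and library and a bar at the median. The members' medians run from 0.83 in WT 1 to −0.90 in the library labelled KO 2, those of the other immediate-early genes from 0.16 to −0.11, and those of the heat shock genes from −0.09 to 0.24.

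Markers of other cell types differed between libraries too. Of 9 neutrophil markers on the array, 4 passed the filter (Ngp, Camp, Ltf and S100a8), all 4 with a positive difference. Ltf read 4.93 and 5.10 in WT, below the filter, and 6.77 and 6.19 in the libraries labelled KO. It passed only through the latter, so its sign was fixed by the filter. Ngp, Camp and S100a8 lay above the filter in every library. The log2 of the list's summed linear level was 9.38 and 8.92 in WT and 10.91 and 10.65 in the libraries labelled KO. Cxcr2 and Mmp8 were below the filter in all libraries. The same sum over 10 stroma and endothelium markers was 9.05 and 9.87 in WT and 9.16 and 9.67 in the libraries labelled KO, with Col3a1, Cxcl12, Cdh5 and Emcn below the filter throughout. The collagen gene Col1a1 in this list, named after its values were seen, read 5.23 in WT 1 and 7.90 in WT 2. In KO 1 and KO 2 it read 5.47 and 7.22. For 7 erythroid and megakaryocyte markers the sum was 10.05 and 9.79 in WT and 9.88 and 9.84 in the libraries labelled KO. The erythroid factor gene Klf1, likewise named afterwards, read 6.73 in WT 1, 5.52 in WT 2, 5.81 in KO 1 and 6.41 in KO 2. Pf4, a megakaryocyte chemokine gene, read 8.61 and 8.22 in WT, 7.62 in KO 1 and 7.23 in KO 2 (−0.99, limma adjusted p = 0.623). This is the order of Fos, which 7.39% of all genes followed. Itga2b in the same list went the other way, at 8.70 and 8.73 in WT, 9.18 in KO 1 and 9.02 in KO 2. Its difference was 0.38 (limma adjusted p = 0.644). Of the 4 markers tested in this list, 3 had a negative difference and 1 a positive one. Hba-a1, Ppbp and Vwf were below the filter in all libraries. Monocyte and macrophage markers summed to 11.51 and 11.61 in WT and to 11.50 and 11.45 in the libraries labelled KO, with Cd14 below the filter in all. Among T and NK cell markers, Thy1 read 6.02 and 5.80 in WT and 7.37 and 7.05 in the libraries labelled KO (1.30, limma adjusted p = 0.292), and Klrd1 read 6.98 and 6.96 against 6.17 and 6.26 (−0.76, adjusted p = 0.574), so that the groups of both did not overlap. Markers of T and NK cells summed to between 11.43 and 11.88, and B and plasma cell markers to between 12.18 and 12.75. The part of these cells in the members' levels was not tested, and fewer cells of a type cannot be told apart from less RNA per cell in bulk samples.

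Among genes that are not members, the pattern over the 4 libraries nearest to the members' mean belonged to Tyms, Dpy19l3, Apoe, Cirbp and Lmbr1. Likeness was measured over 4 libraries as the root-mean-square distance between centred log2 values, which was 0.14 for Tyms, the thymidylate synthase gene, and 0.17 for Lmbr1. Zfp36 was at 0.11 from the members' mean and Jund at 0.64. Cirbp, which encodes a cold-inducible RNA-binding protein, read 10.96 and 10.19 in WT and 10.03 and 9.75 in the libraries labelled KO.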

How the data were processed

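Log2 expression values were deposited by the authors for 45037 probe sets on 4 arrays and come from RMA according to the submitters' processing notes. That method subtracts background, gives the probes of all arrays one distribution and then combines the probes of a set. The combined values did not share one median here. Median centring moved the gap of Fos between the arrays labelled KO from 0.92 to 1.00. The version of RMA, and any further arrays normalized with these, were not given in the sources used here. A common distribution can hide a change shared by most genes.

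Platform annotation gave 1 symbol for 34945 probe sets, several for 932 and none for 9160. Each gene was read from its brightest probe set, and 11196 of 18193 genes with a mean at or above 5.69 were tested with limma 3.58.1 (R 4.3.3; lmFit and eBayes, two-sided, Benjamini-Hochberg at 0.05, all 4 arrays, no covariate). Differences are Lyl1-null minus WT with the moderated SE. The number of arrays limits precision. The fit was tested on simulated data.

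All members and their probe sets were named, with Lyl1, Xist and 1 Y-linked gene as checks, up to 3 genes with the smallest p of each other list, and the 5 genes nearest the members' mean profile. The members and lists were chosen with earlier results of these data known.

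Alternatives were no or a stricter filter (the 70th percentile), other uses of probe sets, quantile normalization, median centring, a trended prior, a replicate block, and each library left out.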

Additional observations from a re-analysis of the deposited data

How the results depend on the processing

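Over 115 alternative fits of the members' differences, 108 kept the sign and the side of the threshold. The sign could not change in many of these. The filters, the fit of every probe set, the trended prior and the replicate blocks left each difference as it was. The mean of probe sets altered it only for Jun and Jund. The 2 that changed sign were Fosb (0.36) and Egr1 (0.13) without WT 1, and the 5 that passed were Junb, Ier2, Jun, Dusp1 and Zfp36 without the library labelled KO 1. Leaving out 1 library at a time gave −2.08 to 0.36 for Fosb and −1.27 to 0.13 for Egr1, 0 to 5 members called, and 1 to 1652 genes called. The count of genes called, 1 in the values as reported, was 0 with the mean of probe sets, 2 with every probe set, with quantile normalization or with median centring, and 4 with no filter or a trended prior; the cause was not tested. The count of members with a negative difference was 8 of 9 with quantile normalization and with median centring. Members with arrays labelled KO at least 1 log2 unit apart numbered 2 as reported, 4 with median centring, 1 with quantile normalization and 1 of 7 tested with the stricter filter, which drops Fosb and Junb. WT 1 stood at least 1 log2 unit above the rest in 3 members with quantile normalization or the stricter filter, against 4. Across all genes tested, WT 1 minus WT 2 and KO 1 minus KO 2 correlated at −0.41. Same-numbered arrays thus tended to deviate in opposite directions. The labels tie no number to a shared source, and no pairing was taken. In the members, however, WT 1 was above WT 2 in 9 of 9, beside 49.3% of all genes. KO 1 was above KO 2 in 8 of 9, beside 55.2% of all genes. For Fosb the order of the WT arrays was fixed by the filter, which it passed only through WT 1. With the replicate number as a block, 3 genes and 0 members were called (limma adjusted p = 0.288 for Fos and 0.400 for Dusp1); a crossed block, added after seeing the data, called 1 gene and 0 members.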
